A study of Mus musculus with 6 samples.

Results

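The genes of DNA replication and of the G1/S transition were compared between mpkCCD clone 11 cells given dDAVP and the same cells given vehicle. The set holds 39 genes, chosen by symbol for their function: 26 replication factors, 8 cyclins and CDK inhibitors, and E2f1, Rb1 and 3 cyclin-dependent kinases (CDKs). Each gene was represented by 1 probe set, the one with the highest mean over the 6 arrays among those annotated to that gene alone. In all, 37 of the 39 genes were measured, out of 12364 genes in the table; Chaf1a and Ccnd2 were not analysed here. The 37 comprised 25 replication factors, 7 cyclins and CDK inhibitors, and the 5 CDK, E2F and Rb genes. Both groups were the clonal line mpkCCD clone 11, mouse cells of the kidney cortical collecting duct, grown as a polarized layer on membrane supports until the transepithelial resistance was at least 5 kohm per square centimeter. The treated group then received 0.1 nM dDAVP, a synthetic vasopressin analog acting on the V2 receptor, for 5 days, and the control group received vehicle over the same 5 days. RNA of each group was hybridised to 3 arrays (Affymetrix Mouse Genome 430 2.0), labelled as biological replicates; since nothing says that they were separate passages or days, the p-values measure only the spread between these samples. As background from outside the labels, the parent mpkCCD line came from a mouse carrying the SV40 large T antigen under a pyruvate kinase promoter, and large T binds the Rb family and p53. One clone of such a line is a limited model of the G1/S control of a collecting duct cell.

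As background, replication is licensed in G1, when Cdc6 and Cdt1 help to load the ring-shaped MCM helicase at origins, and it starts when CDK activity recruits Cdc45 and the GINS complex. D-type cyclins with Cdk4 and Cdk6, and then E-type cyclins with Cdk2, phosphorylate the retinoblastoma protein Rb1. Rb1 then releases E2F factors, which switch on most genes of the replication machinery, while the inhibitors encoded by Cdkn1a (p21), Cdkn1b (p27) and Cdkn2c (p18) hold the kinases back. Principal cells of the mature collecting duct seldom divide, whereas an immortalised line keeps cycling cells.

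Sequences at the gene starts are shown because letters of the E2F site are a feature that many replication genes share and that the choice of genes did not use. RefSeq windows on GRCm38.p6, from 250 bases before to 50 bases after a gene's start, matched 32 of the 39 genes. They were searched on both strands for the 8-letter words TTTCCCGC, TTTGGCGC, TTTCGCGC and TTTGCCGC, which can overlap each other. At least 1 word lay in a window of 9 of 23 replication factors (39.1%), against 1 of 9 of the other genes of the list (11.1%), 479 of 10042 genes on the array that had a window (4.77%) and 704 of all 27025 genes with a window (2.6%). The replication factors were Mcm3, Mcm5, Mcm6, Mcm7, Cdc6, Cdt1, Pola1, Rfc3 and Uhrf1, and the remaining gene was Cdk2. The stretches below run 5′ to 3′ along the gene, with the words in capitals. They are shown for a helicase subunit with several words, a clamp loader subunit, the licensing factor Cdc6, the polymerase subunit Pola1 and the kinase Cdk2.
Mcm6 (chr1:128359727-128359833, - strand): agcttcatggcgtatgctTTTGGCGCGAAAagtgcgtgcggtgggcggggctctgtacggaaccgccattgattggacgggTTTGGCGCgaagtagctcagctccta
Rfc3 (chr5:151651183-151651236, - strand): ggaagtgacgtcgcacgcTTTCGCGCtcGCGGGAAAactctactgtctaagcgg
Cdc6 (chr11:98907995-98908038, + strand): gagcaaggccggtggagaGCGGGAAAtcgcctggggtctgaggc
Pola1 (chrX:93632268-93632311, - strand): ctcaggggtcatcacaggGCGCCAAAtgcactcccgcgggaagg
Cdk2 (chr10:128705166-128705209, - strand): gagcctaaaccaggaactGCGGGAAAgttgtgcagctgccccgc
Counted from the start base as 1, the first word began at -110 in Mcm6, -10 in Rfc3, -138 in Cdc6, -138 in Pola1 and -140 in Cdk2.

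The window of Mcm5 is given at greater length because it was the only window of the list with the full cAMP response element TGACGTCA, the letters bound by CREB downstream of the V2 receptor. That element lay in a window of 1 of 23 replication factors (4.35%), 0 of 9 of the other listed genes and 353 of 10042 genes on the array (3.52%). The letters CCAAT, or their reverse, lay in a window of 16 of 23 replication factors (69.6%), 4 of 9 of the other listed genes (44.4%) and 4297 of 10042 genes on the array (42.8%). In the sequence below the capitals mark an E2F word pair from -153, the cAMP response element from -99 and 3 CCAAT boxes from -77 to 7, and the last bases after the start are left out.
Mcm5 (chr8:75109259-75109538, + strand): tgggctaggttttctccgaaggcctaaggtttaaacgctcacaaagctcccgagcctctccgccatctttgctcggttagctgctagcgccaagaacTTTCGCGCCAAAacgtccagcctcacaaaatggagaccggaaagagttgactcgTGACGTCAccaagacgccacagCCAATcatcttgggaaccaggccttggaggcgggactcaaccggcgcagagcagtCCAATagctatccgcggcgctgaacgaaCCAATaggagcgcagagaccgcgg
A match of letters is a description of the window and not a bound site.

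The arrays were alike in scale: their medians lay within 0.043 log2 units and any 2 arrays correlated at 0.996 to 0.998 across probe sets. The collecting duct label was met in part. Hsd11b2 averaged 10.32 in dDAVP and 10.36 in vehicle cells and Gata3 9.80 in dDAVP and 9.87 in vehicle cells, on the log2 signal scale, while Elf5, at 3.74 in dDAVP and 3.75 in vehicle cells, was near the highest of 10 olfactory receptor probe sets (3.56), taken as an unexpressed level. Defining markers of fibroblasts (Col1a1, Col3a1) and endothelium (Cdh5) had group means of 2.72 to 3.65 and the leukocyte marker Ptprc averaged 3.32 in dDAVP and 3.11 in vehicle cells. Cd68, the other leukocyte marker measured, was above that level at 5.65 ± 0.12 in dDAVP and 5.46 ± 0.081 in vehicle cells (SD, n = 3), with groups that did not overlap and a limma adjusted p of 0.593; its part in the results below was not tested. Lrp2, a proximal tubule marker, averaged 8.25 in dDAVP and 8.35 in vehicle cells. The intercalated cell markers Atp6v1b1 and Atp6v0a4 were at 7.48 and 6.31 in dDAVP cells, against 7.15 and 5.89 in vehicle cells. For both of them every dDAVP value was above every vehicle value (limma adjusted p = 0.153 and 0.397). None of these markers passed the test. The response to dDAVP was present, with Aqp2 at 10.85 in dDAVP and 6.70 in vehicle cells. Of the 10 principal cell markers, 3 passed, all higher with dDAVP. Beside Aqp2 these were Avpr2 (9.25 against 8.73, limma adjusted p = 0.0271) and Fxyd4 (9.57 against 8.89, adjusted p = 0.0116). Scnn1a (7.47 against 7.45) and Scnn1g (7.70 against 7.44) did not pass. Nor did the dimmer Scnn1b (5.57 against 5.33) and Aqp3 (5.07 against 4.91). Hybridisation controls, added after labelling, averaged 10.46 ± 0.066 in dDAVP arrays and 10.61 ± 0.080 in vehicle arrays (SD, n = 3); a two-sided exact permutation test gave p = 0.1, the smallest possible here. Scaling to them put the median change of all probe sets at 0.15, against 0.0039 as deposited, so the signs of small changes below depend on the scaling.

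No gene of the list passed the test. The limma test over 28225 probe sets, with Benjamini-Hochberg adjustment and a threshold of 0.05, called 0 of the 37 genes, against 61 of all probe sets (0.216%) and 36 of all genes by their brightest probe set (0.291%). The lowest adjusted p among the 37 was 0.447, for Ccnd1. At an unadjusted p below 0.05 there was 1 of 37, again Ccnd1, against 7.8% of all genes. With 1 array left out, the count of all probe sets called was 25, 22 or 30 without dDAVP replicate 1, 2 or 3, and 26, 46 or 26 without vehicle replicate 1, 2 or 3; it was 0 of the 37 each time. Counting every single-gene probe set, the list had 80, of which 0 passed, 5 had an unadjusted p below 0.05 (7.98% of all probe sets did) and 12 had groups that did not overlap (13.4% of all probe sets).

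**Figure D1:**
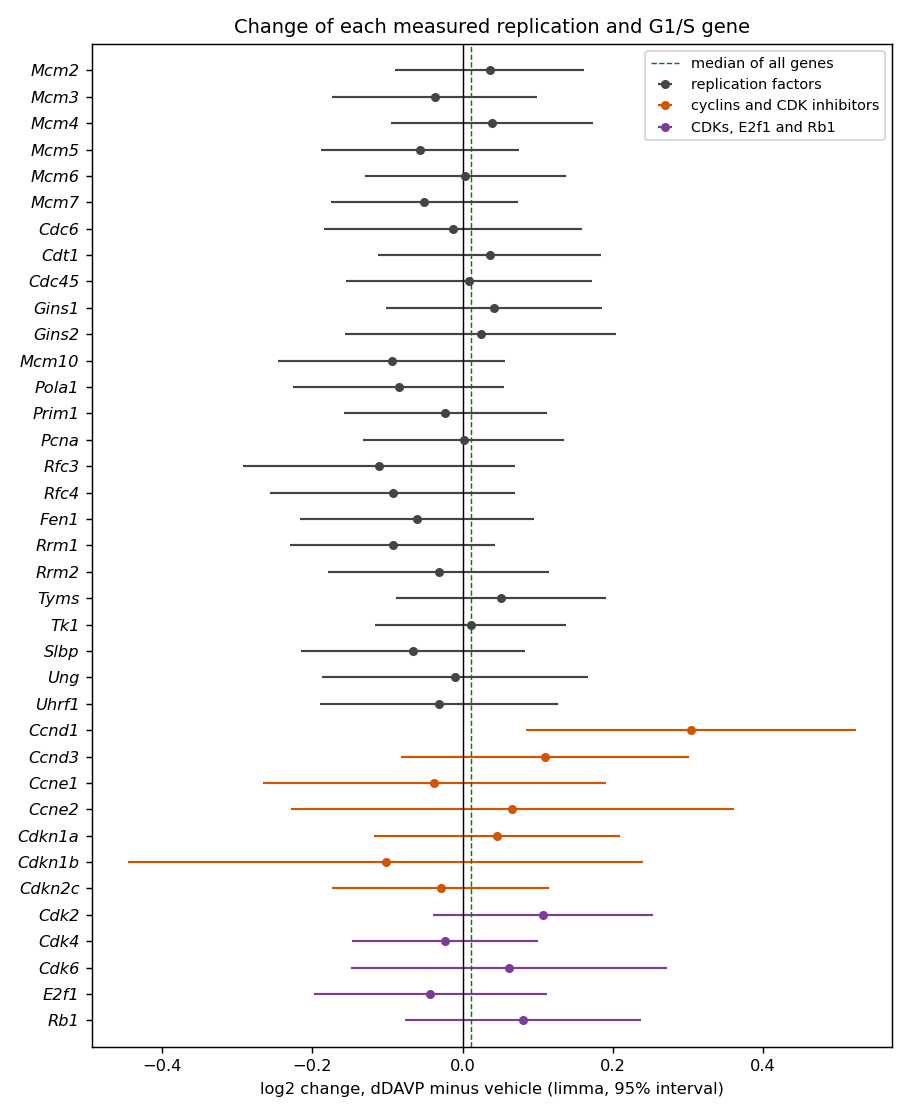
Log2 change (dDAVP minus vehicle, x axis) of the 37 measured genes with the 95% interval of the limma fit, coloured by set, in the order of their roles; the dashed line is the median of all genes. The intervals of the 25 replication factors lie between -0.29 and 0.20, and that of Ccnd1 lies between 0.08 and 0.52; when arrays are scaled to the hybridisation controls all 37 points lie above 0.

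The replication machinery differed little between the groups. The log2 changes of the 25 replication factors ran from -0.11 (Rfc3) to 0.05 (Tyms), with a median of -0.023 against 0.012 for all genes by their brightest probe set. An absolute change under 0.1 was seen in 24 of the 25 (96%), against 72.8% of all genes. These shares were not matched for signal: the lowest mean level was 7.05 among the 25 and 2.47 among all genes. Each of the 25 intervals at 95% lay inside -0.3 to 0.3, and together they spanned 0.817-fold to 1.15-fold of the vehicle signal. A change of positive sign was seen in 10 and of negative sign in 15; once scaled to the hybridisation controls, their median was 0.12 and all 25 were positive. Their median SD within groups was 0.054 log2 units, against 0.083 for all genes.

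All 6 subunits of the MCM helicase, which unwinds DNA at the fork, were measured. Their log2 differences were 0.036 (Mcm2), -0.037 (Mcm3), 0.039 (Mcm4), -0.057 (Mcm5), 0.0039 (Mcm6) and -0.051 (Mcm7), with SEs of 0.054 to 0.059. Mcm2 measured 10.660, 10.684 and 10.634 log2 units in the 3 dDAVP arrays, against 10.634, 10.625 and 10.612 in the vehicle arrays. Its dDAVP values were all above the vehicle values, by a margin under 0.001 at the closest pair, and the difference did not pass (limma adjusted p = 0.932). Mcm7 was the reverse case, at 12.64, 12.62 and 12.63 in dDAVP arrays, against 12.68, 12.70 and 12.66 in vehicle arrays. All its dDAVP values were below all its vehicle values (adjusted p = 0.893). The subunits work together in a ring, and their 6 differences lay within 0.1 log2 units of each other. Mcm5, whose start carries the cAMP response element shown above, had an interval of -0.19 to 0.08.

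Among the genes that load and fire the helicase, the licensing factors Cdc6 and Cdt1 were at -0.013 and 0.036. Cdc45 (0.0082), Gins1 (0.042) and Gins2 (0.024), which join the MCM ring to make the active helicase, had positive values that did not pass. Mcm10, which helps origins to fire, measured 8.11, 8.21 and 8.09 log2 units in dDAVP arrays, against 8.21, 8.30 and 8.18 in vehicle arrays. dDAVP replicate 2 lay within the vehicle range, and the difference was -0.09 ± 0.065 (SE, adjusted p = 0.808). The lowest adjusted p of these 6 genes was that of Mcm10.

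For DNA synthesis itself, Pcna, the sliding clamp, differed by 0.0013 ± 0.058 log2 units (SE), with an interval of -0.13 to 0.14. Pola1, the catalytic subunit of polymerase alpha, and Prim1, of its primase, were at -0.09 and -0.023. Fen1, the flap nuclease of lagging strand synthesis, was at -0.061. The clamp loader subunit Rfc3 had the largest absolute change of the 25 replication factors. It measured 9.27, 9.13 and 9.31 in dDAVP arrays, against 9.39, 9.23 and 9.42 in vehicle arrays. The groups overlapped, and the change was -0.11 ± 0.078 (SE, adjusted p = 0.812); a second Rfc3 probe set gave -0.026. Rfc4, from the same clamp loader, was at -0.09 ± 0.071 with overlapping groups. Its second probe set, at -0.10 ± 0.061 (SE, adjusted p = 0.760), had every dDAVP value below every vehicle value. The same held for a second probe set of Mcm3 (-0.10 ± 0.057, adjusted p = 0.755) and of Mcm7 (-0.08 ± 0.055, adjusted p = 0.811).

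In nucleotide supply, the ribonucleotide reductase subunit Rrm1 measured 10.30, 10.32 and 10.23 log2 units in dDAVP arrays, against 10.36, 10.42 and 10.34 in vehicle arrays. Every dDAVP value was below every vehicle value, with a change of -0.09 ± 0.059 (SE, adjusted p = 0.779), the lowest adjusted p among the replication factors. Its partner Rrm2 was at -0.032, the thymidine kinase Tk1 at 0.011 and the thymidylate synthase Tyms at 0.051. A probe set shared between Tyms and a pseudogene was left out, and its difference was 0.033. Of the genes for histones and chromatin, the histone mRNA binding protein Slbp was at -0.066 and Uhrf1, which keeps DNA methylation at the fork, at -0.031. The uracil glycosylase Ung was at -0.01. In these families 3 replication factors had groups that did not overlap, 1 higher with dDAVP (Mcm2; 10.1% of all genes) and 2 lower (Mcm7 and Rrm1; 5.13% of all genes).

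**Figure D2:**
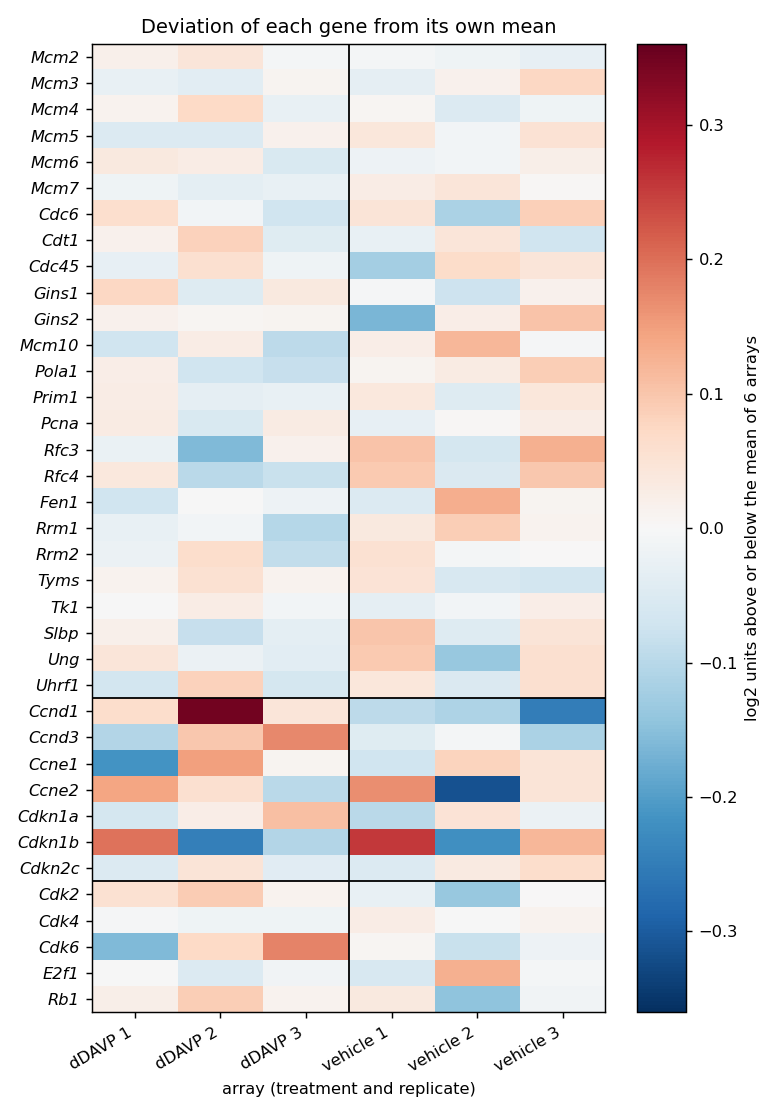
Deviation of each gene's log2 signal from its own mean over the 6 arrays (colour), with genes in rows, dDAVP arrays left of vehicle arrays, and lines between the 3 gene sets. The replication rows are pale in all 6 arrays, and the strongest colours are Ccnd1 in dDAVP replicate 2 (0.35) and Ccne2 in vehicle replicate 2 (-0.31).

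The cyclins varied more. The median SD within groups of the 7 cyclins and CDK inhibitors was 0.13 log2 units, against 0.083 for all genes, and their changes ran from -0.10 to 0.30 with a median of 0.045. Leaving out 1 array moved that median to 0.0023 without dDAVP replicate 3, 0.0085 without vehicle replicate 1 and -0.0069 without vehicle replicate 2. Ccnd1 encodes cyclin D1, the partner of Cdk4 and Cdk6 that links growth signals to the cycle. It measured 8.47, 8.76 and 8.45 log2 units in the 3 dDAVP arrays, against 8.32, 8.30 and 8.16 in the vehicle arrays. All dDAVP values lay above all vehicle values, as was the case for 3 of the 37 genes and for 10.1% of all genes. The signal with dDAVP was 1.23-fold that with vehicle (95% interval 1.06 to 1.44). The log2 difference of 0.30 ± 0.095 (SE) did not pass over all probe sets (limma adjusted p = 0.447). Without dDAVP replicate 2, its highest array, the change was 0.21. A second probe set of Ccnd1 gave 8.39, 8.82 and 8.54 in dDAVP arrays, against 8.15, 8.38 and 8.02 in vehicle arrays. There too the groups did not overlap (change 0.40 ± 0.13 SE, adjusted p = 0.461). On the dimmest of its 3 probe sets they overlapped, and the change was 0.11 ± 0.096 (adjusted p = 0.866). The change of Ccnd1 was positive under each scaling tried, from 0.28 to 0.45. In bulk RNA, more signal in each cell and more cells in one phase of the cycle cannot be told apart.

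Ccnd3, the D-type cyclin measured beside it, gave 8.35, 8.55 and 8.63 in dDAVP arrays, against 8.41, 8.45 and 8.34 in vehicle arrays. The groups overlapped, since dDAVP replicate 1 was within the vehicle range (change 0.11 ± 0.083 SE, adjusted p = 0.830). Ccne1, one of the E-type cyclins that activate Cdk2, gave opposite pictures on its 2 probe sets. The brighter one, with a name ending in _x_at, measured 7.32, 7.68 and 7.55 in dDAVP arrays, against 7.47, 7.62 and 7.58 in vehicle arrays, with a change of -0.038 ± 0.099 (SE). The other measured 7.23, 7.14 and 7.16 in dDAVP arrays, against 6.92, 6.997 and 6.98 in vehicle arrays. On that probe set the groups did not overlap, and its change of 0.21 ± 0.059 (SE) had the lowest adjusted p of all 80 probe sets of the list (unadjusted p = 0.00705, adjusted p = 0.376). The ending _x_at marks a probe set whose probes may also bind other transcripts. Brightest probe sets with that ending also stood for Mcm5, Fen1, Rrm2 and Cdk4. Ccne2, the second E-type cyclin, measured 7.10, 7.02 and 6.86 in dDAVP arrays, against 7.13, 6.65 and 7.01 in vehicle arrays. The spread was wide in both groups, and the change was 0.066 ± 0.13 (SE).

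**Figure D3:**
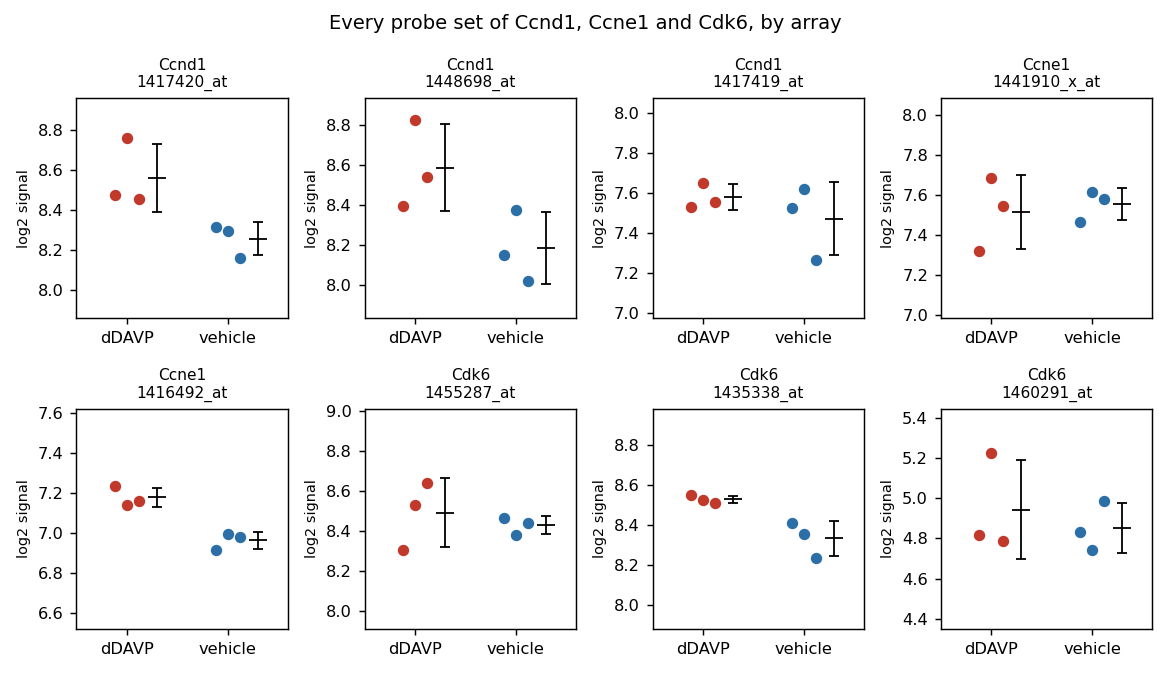
Log2 signal of every probe set of Ccnd1, Ccne1 and Cdk6 in each array (points, dDAVP left of vehicle), with the group mean and SD beside them; every panel spans the same number of log2 units. The groups do not overlap on 2 of 3 probe sets of Ccnd1, 1 of 2 of Ccne1 and 1 of 3 of Cdk6 (13.4% of all probe sets, in either direction). These genes hold all 4 of the list's 80 probe sets that were higher with dDAVP at an unadjusted p below 0.05 (limma). Of all 28225 probe sets, 1368 were higher with dDAVP below that p, and 7.98% were below it in either direction. The panels thus do not stand for the list.

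Each of the 3 CDK inhibitors had overlapping groups. Cdkn1a, which encodes p21, a target of p53 that blocks Cdk2, measured 10.57, 10.65 and 10.74 in dDAVP arrays, against 10.54, 10.68 and 10.61 in vehicle arrays. The groups overlapped, the change was 0.045 ± 0.071 (SE) with an interval of -0.12 to 0.21, and a second probe set gave 0.058. Cdkn1b, which encodes p27, measured 10.80, 10.36 and 10.50 in dDAVP arrays, against 10.86, 10.39 and 10.73 in vehicle arrays. Its SE was the largest among the 37 genes (difference -0.10 ± 0.15, interval -0.45 to 0.24). Cdkn2c, which encodes p18, an inhibitor of Cdk4 and Cdk6, measured 10.04, 10.13 and 10.05 in dDAVP arrays, against 10.04, 10.12 and 10.15 in vehicle arrays. Its change was -0.029 ± 0.062 (SE), and its groups overlapped.

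Of the kinases, Cdk2 measured 9.81, 9.85 and 9.77 in dDAVP arrays, against 9.73, 9.62 and 9.76 in vehicle arrays. All dDAVP values were above all vehicle values, with a change of 0.11 ± 0.063 (SE, adjusted p = 0.754). Cdk4 measured 11.145, 11.134 and 11.132 in dDAVP arrays, against 11.174, 11.146 and 11.160 in vehicle arrays. These groups did not overlap either, in the opposite order and by a change of only -0.023 ± 0.054 (SE), and its other probe sets, at -5.67e-05 and -0.049, had overlapping groups. Cdk6 measured 8.30, 8.53 and 8.64 in dDAVP arrays, against 8.47, 8.38 and 8.44 in vehicle arrays on its brightest probe set. The vehicle range lay inside the dDAVP range (change 0.062 ± 0.091 SE). On another Cdk6 probe set, nearly as bright, the values were 8.55, 8.53 and 8.51 in dDAVP arrays, against 8.41, 8.36 and 8.24 in vehicle arrays. There the groups did not overlap (change 0.19 ± 0.065 SE, unadjusted p = 0.0179, adjusted p = 0.481).

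E2f1, the activating E2F factor and itself an E2F target, measured 8.25, 8.20 and 8.24 in dDAVP arrays, against 8.19, 8.38 and 8.24 in vehicle arrays. Rb1, which holds E2F factors inactive, measured 8.28, 8.35 and 8.27 in dDAVP arrays, against 8.30, 8.12 and 8.25 in vehicle arrays. Both genes had overlapping groups, with changes of -0.043 ± 0.067 and 0.081 ± 0.068 (SE).

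Beside the brightest probe sets, 12 others of 11 genes had a change of opposite sign: Mcm4 (-0.07), Mcm5 (0.1), Mcm6 (-0.12 and -0.034), Cdc45 (-0.08), Mcm10 (0.08), Rrm1 (0.024), Tyms (-0.021), Slbp (0.038), Ccnd3 (-0.013), Ccne1 (0.21) and Rb1 (-0.08). Apart from Ccne1 each of these had overlapping groups. The Mcm6 probe set at -0.034 (2.90 in dDAVP, 2.94 in vehicle arrays) and that of Rb1 (3.10 and 3.18) lay below the unexpressed level of 3.56. That of Rrm1 (3.62 and 3.60) lay near it. The only probe set of a replication factor with an unadjusted p below 0.05 was the dimmest of Mcm3, at 5.95, 5.50 and 5.59 in dDAVP arrays, against 5.86, 6.08 and 5.99 in vehicle arrays (change -0.30 ± 0.12 SE, unadjusted p = 0.0388, adjusted p = 0.595). This one was chosen after its values were seen, and its groups overlapped.

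The replication factors were then set against the cyclins and CDK inhibitors within each array. For each gene the deviation from its own mean over the 6 arrays was taken, and the deviations were averaged over the set. The 25 replication factors averaged 0.00067, -0.0065 and -0.031 log2 units in the 3 dDAVP arrays, against 0.011, -0.0071 and 0.032 in the vehicle arrays. The 7 cyclins and CDK inhibitors averaged -0.0048, 0.068 and 0.013 in the dDAVP arrays, against 0.0096, -0.071 and -0.015 in the vehicle arrays. In both sets the groups overlapped. Replication minus cyclins and inhibitors came to -0.038 ± 0.040 in dDAVP arrays and 0.038 ± 0.032 in vehicle arrays (SD, n = 3), a difference of -0.075 that any constant scaling of an array leaves as it is. The lowest vehicle value of this contrast, 0.0016, was below the highest dDAVP value, 0.0055, so the groups overlapped by a small margin. Leaving Ccnd1 out of the cyclins, a choice made after the data were seen, brought the difference to -0.033. No p is given for these averages, since the genes were chosen with results of these data known.

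**Figure D4:**
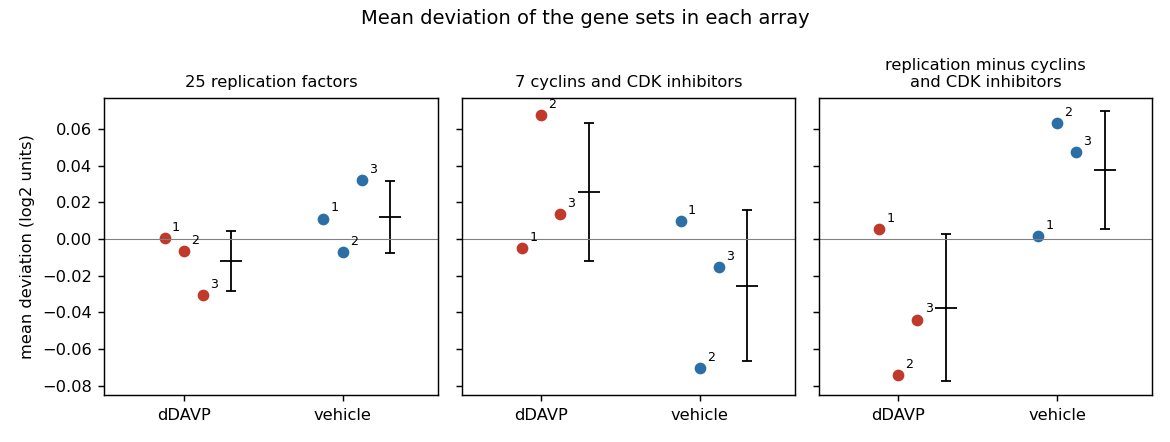
Mean deviation in log2 units of the 25 replication factors, of the 7 cyclins and CDK inhibitors, and of the first minus the second, in each array (points with replicate numbers, dDAVP left of vehicle) with group mean and SD. The difference averages -0.038 in dDAVP and 0.038 in vehicle arrays, and replicate 1 of both groups lies near 0.

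The extremes of the replication genes were spread unevenly over the arrays. The highest of the 6 values fell in dDAVP replicate 1, 2 or 3 for 3, 7 and 0 of the 25 replication factors, against 2, 5 and 8 in vehicle replicate 1, 2 or 3. The lowest value fell in these arrays for 3, 6 and 5 genes among the dDAVP arrays, against 3, 5 and 3 among the vehicle arrays. dDAVP replicate 3 was above the gene's own mean in 7 of 25 genes, and vehicle replicate 3 in 20 of 25.

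Other genes of the same pathways were also below the threshold. Of 51 other replication genes, such as the origin recognition complex and the polymerases delta and epsilon, 49 were measured and 0 passed, with 0 at an unadjusted p below 0.05 (7.8% of all genes). Their median change was -0.027 and the range -0.18 to 0.10, with 16 positive and 33 negative before the shift of about 0.15 that scaling to the hybridisation controls adds. As deposited, 6844 of all 12364 genes were positive. The lowest unadjusted p values were those of Dscc1, a subunit of an alternative clamp loader (-0.18 ± 0.076 SE, limma adjusted p = 0.629), and Gins3, of the GINS complex (-0.12 ± 0.059, limma adjusted p = 0.695). Of 32 other G1/S control genes 31 were measured and 0 passed, while 1 was higher and 2 were lower at an unadjusted p below 0.05 (5.51% and 2.3% of all genes). Myc, a driver of cell growth and of Ccnd2 and Cdk4 transcription, averaged 9.61 ± 0.092 in dDAVP arrays and 9.35 ± 0.052 in vehicle arrays (SD, n = 3), with a change of 0.26 and a limma adjusted p of 0.351. Ccna2, the cyclin of S phase and G2, averaged 11.38 ± 0.033 in dDAVP arrays and 11.54 ± 0.031 in vehicle arrays, with a change of -0.16 and an adjusted p of 0.503. Both were without overlap between the groups, and neither passed. Of the 31 genes, 2 were higher with dDAVP without overlap and 4 were lower (10.1% and 5.13% of all genes).

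Among 18 p53 targets, listed beside Cdkn1a, 15 were measured and 0 passed, while 2 were higher and 1 was lower at an unadjusted p below 0.05 (5.51% and 2.3% of all genes). Their median change was 0.066, with 12 positive and 3 negative, beside 6844 positive and 5520 negative among all genes. Pmaip1, a pro-death BH3-only gene, was lower (-0.21 ± 0.080 SE, limma adjusted p = 0.542), whereas Zmat3, an RNA binding protein, was higher (0.24 ± 0.097, adjusted p = 0.604), and neither passed. For context at the other end of the cycle, 13 of 14 mitosis markers were measured, 0 passed, and 5 were lower at an unadjusted p below 0.05 (2.3% of all genes). Their median change was -0.12, with all 13 negative, against -0.023 for the 25 replication factors; scaling to the hybridisation controls adds the same amount, about 0.15, to every gene, which leaves the mitosis median above 0. The difference between these lists was not tested, and the tendency of the mitosis genes was known beforehand.

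**Figure D5:**
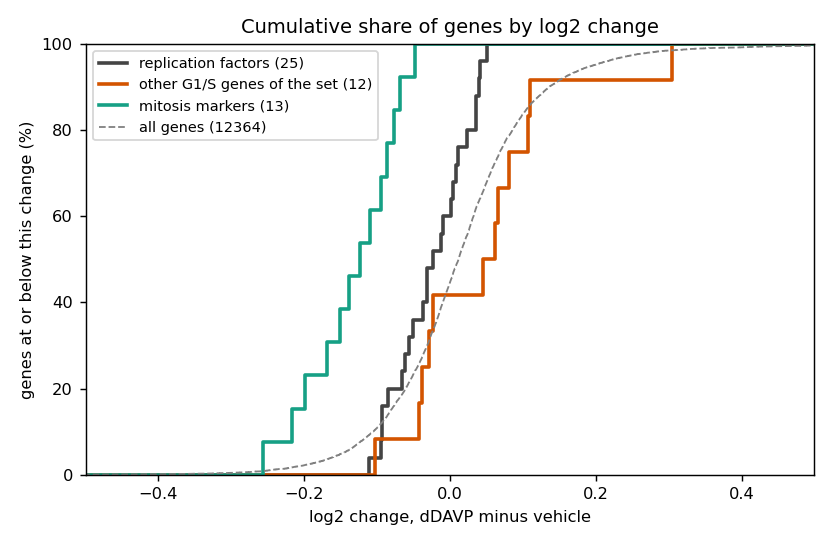
Cumulative share of genes (y axis, percent) at or below a given log2 change, dDAVP minus vehicle (x axis), for the 25 replication factors, the other 12 genes of the list, 13 mitosis markers and all 12364 genes. The replication factors lie between -0.11 and 0.05, the mitosis markers between -0.26 and -0.048, and Ccnd1 (0.30) is the last step of the G1/S genes; scaling to the hybridisation controls moves the median of all probe sets to 0.15.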

How the data were processed

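Per the labels' protocols, total RNA was extracted with Trizol and made into biotinylated cRNA for Affymetrix Mouse Genome 430 2.0 arrays. The values that the authors deposited are on a log2 scale, from 2.15 to 14.1. Per the submitters' processing notes, the tools named were MAS5, RMA and Affymetrix Expression Console 1.1; the sources used here do not say which of them made the values. An RMA summary can compress the changes of dim probe sets. The deposited table held 28287 probe sets. Shares of all probe sets and of all genes refer to that table and not to the whole array. Of the 28287 probe sets, 62 controls were left out of the test. Platform annotation gave 1 gene symbol to 23097, several to 611 (not used) and none to 4517, and all 37 measured genes matched RefSeq by Entrez ID (GRCm38.p6), which also gave the promoter windows.

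Groups and replicate numbers came from the titles. dDAVP and vehicle were compared with lmFit and eBayes in limma 3.58.1 (R 4.3.3) on the values as deposited, with Benjamini-Hochberg adjustment over 28225 probe sets. SEs and 95% intervals come from this fit, unadjusted for the number of genes, and SDs are over 3 arrays; the number of arrays limits the precision. The code was tested on simulated data. The genes and lists were chosen with earlier results of these data known, so lists are described by counts and medians only. All measured genes of the list are named. Values in every array are given for the cyclins, CDKs, inhibitors, E2f1 and Rb1, for replication factors with an unadjusted p below 0.05 or groups that do not overlap, and for the 3 with the largest change. Genes outside the list are named for the lowest unadjusted p, up to 2 per list, apart from the cell type markers. Alternatives were quantile normalization, median centring, scaling to hybridisation or poly-A controls, a block for replicate number, averaging all probe sets of a gene, a filter on dim probe sets, trended and robust priors, and dropping 1 array at a time. Leaving out probe sets ending in _x_at or _s_at, and leaving out Ccnd1, were added after the data were seen. Figures were drawn with matplotlib 3.10.9.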

Additional observations from a re-analysis of the deposited data

How the results depend on the processing

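No gene of the list passed in limma under any of the alternatives run across probe sets or genes (0 in each, with 0 to 5 of 37 at an unadjusted p below 0.05; the 5 came with scaling to the hybridisation controls, where 22.6% of all probe sets were below it), and the lowest adjusted p in any of them was 0.0756, for Ccnd1 scaled to the hybridisation controls. That scaling moved the median of the replication factors to 0.12 (-0.023 as deposited), that of the cyclins and CDK inhibitors to 0.19 (0.045 as deposited) and that of all probe sets to 0.15, turned 20 of 37 genes from negative to positive, and gave 282 changed probe sets (61 as deposited). Scaled to the poly-A controls the replication median was -0.047. Leaving out 1 array gave replication medians of -0.042 to -0.0071, cyclin and inhibitor medians of -0.0069 to 0.061 and 22 to 46 changed probe sets. The replicate block gave 24 changed probe sets, the filter on dim probe sets 95 and the trended prior 146. The difference of replication factors minus cyclins and CDK inhibitors was negative in each alternative that gave a value, and was -0.033 without Ccnd1. Scaling each array by a constant, the replicate block, the priors and the filter leave this difference as it is. For those alternatives the sign was therefore fixed in advance. Deviations of same-numbered arrays correlated across probe sets at 0.20, 0.046 and -0.052 for replicates 1, 2 and 3. Differently numbered arrays gave -0.21 to 0.17, so replicate 1 was the highest pair. As the same-numbered values were low and mixed in sign, the numbers were not taken as pairs. Several genes could still follow the number: Gins1, Prim1, Rfc3, Rfc4, Slbp and Cdkn1b were lowest in replicate 2 of both groups. Cdt1, Cdc45, Mcm10, Fen1, Rrm1 and Ccne1 were highest in replicate 2 of both groups. Mcm4 was highest in dDAVP replicate 2 and lowest in vehicle replicate 2. With the replicate block, the lowest limma adjusted p of the 37 genes was 0.435. Without probe sets ending in _x_at or _s_at, Ccne1 was at 0.21 in place of -0.038. The replication median was then -0.013 and that of the cyclins and CDK inhibitors 0.066. In that run 2 of 37 genes had an unadjusted limma p below 0.05, against 1 as deposited. The number of arrays and signal over background limit what small changes can be seen. The cause of these shifts was not tested.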
